A study of Mus musculus with 2 samples.

Results

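Gene deserts are long stretches of chromosome without protein-coding genes. The regions described here are the peaks of 5-hydroxymethylcytosine (5hmC) called in such stretches in mouse prospermatogonia, which are germ cells of the male before birth. A peak was taken when it lay on an autosome, overlapped no annotated gene of any type and was over 500 kb from the nearest protein-coding gene span. The rule used positions only and not the strength of a peak, but it was chosen with earlier results of these data known. Of the 108395 peaks of the library, 106034 were autosomal and 2740 met the rule. These desert peaks were set beside 36795 other autosomal peaks outside genes and 66499 autosomal peaks on genes.

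The captured library came from wild-type (WT) prospermatogonia of stage E17.5 (embryonic), in which 5hmC had been tagged with biotin-labelled glucose and pulled down on streptavidin (5hmC-Seal). The other sample was the DNA of the same kind of cells before capture, also WT and also of batch 1, and no file of it was used here. The DNA came from 30000 cells pooled from multiple embryos, so differences between animals cannot be seen, and 50 ng of it entered the capture. There was 1 captured library and no replicate, so samples could not be tested against each other. The peak list gives no numbers of reads, and the depth is unknown. A list of DNA regions holds no expression, so the labelled cell type could not be checked against its markers.

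5hmC is made from 5-methylcytosine by the TET enzymes and occurs mainly at CG dinucleotides (CpG). In many tissues it is found within the bodies of active genes and at enhancers. Prospermatogonia gain DNA methylation over most of their genome before birth, including over sequence far from genes. Deserts are known to hold distant enhancers of the genes at their borders and many transposon copies.

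The sequence of the desert peaks themselves was not used here, because no genome of the build was at hand. No annotated gene inside a desert is typed as protein-coding, but the genes there include variable segments of immune loci. RefSeq promoter sequences (build GRCm38.p6) were available for 206 of the annotated genes inside deserts. They were 231 windows from 250 bases before to 50 bases after a transcription start. None of the 231 windows held a desert peak, which the rule largely sets, since each window includes the first 50 bases of a gene. The nearest desert peak was at a median of 53.6 kb. These promoters were poor in CpG, with a median of 2 CpG against 7 over all 32851 windows of the table, and 6 of the 231 had 10 or more. A peak on the gene itself, hence outside the desert set, overlapped 4 windows, or 1.73% (exact 95% interval 0.474 to 4.37), against 6.09% of 31396 autosomal windows. Windows of the same gene can overlap, as at Gm29260, and were counted apart, so the interval is too narrow. The comparison windows include those of protein-coding genes, so neither the CpG contrast nor the peak contrast is one of deserts alone. Both CpG-rich windows among the 4 with a peak are printed below, with every CG in capitals, and were chosen after their values were seen. The window of the lncRNA gene Gm41479 spans chr16:80294655-80294954 on the + strand, in the desert between Tmprss15 and Ncam2, and a peak of fold 9.20 overlapped it. The window of the lncRNA gene Gm46244 spans chr1:113145271-113145570 on the + strand, in the desert between Dsel and Cntnap5a, and a peak of fold 5.09 overlapped it. The third sequence is the desert promoter closest to a desert peak, that of the lncRNA gene C230079O03Rik at chr7:136349366-136349665 on the − strand, between Mki67 and Mgmt. That desert peak began 18 bp from the window and had a fold of 3.90 over 285 bp.
Gm41479 promoter: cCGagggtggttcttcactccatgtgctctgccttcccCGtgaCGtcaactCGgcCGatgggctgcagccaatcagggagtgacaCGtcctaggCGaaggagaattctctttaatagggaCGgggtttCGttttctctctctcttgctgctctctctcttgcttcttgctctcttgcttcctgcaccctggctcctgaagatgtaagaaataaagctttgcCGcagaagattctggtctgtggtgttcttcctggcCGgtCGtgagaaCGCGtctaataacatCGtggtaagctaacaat
Gm46244 promoter: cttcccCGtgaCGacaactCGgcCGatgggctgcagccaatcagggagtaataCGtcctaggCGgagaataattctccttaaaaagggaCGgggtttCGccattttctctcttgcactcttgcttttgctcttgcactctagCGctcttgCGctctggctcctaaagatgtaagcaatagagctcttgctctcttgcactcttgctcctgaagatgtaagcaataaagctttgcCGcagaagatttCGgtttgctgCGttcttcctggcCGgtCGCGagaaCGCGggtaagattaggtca
C230079O03Rik promoter: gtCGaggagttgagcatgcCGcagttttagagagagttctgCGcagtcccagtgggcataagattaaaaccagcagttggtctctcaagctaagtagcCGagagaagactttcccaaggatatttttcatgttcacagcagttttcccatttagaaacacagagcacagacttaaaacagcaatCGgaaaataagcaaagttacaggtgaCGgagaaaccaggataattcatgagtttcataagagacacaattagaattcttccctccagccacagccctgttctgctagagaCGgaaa

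The first pair of sequences was alike. A local alignment matched 222 of 290 positions, or 76.6%. Their longest shared run was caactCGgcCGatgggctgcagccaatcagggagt, 35 bases with 2 CpG in capitals. On either strand, this run was in the promoter windows of 7 autosomal genes, 0.0213% of all windows in the table, and all 7 genes are lncRNA genes. A peak overlapped the window in each of these 7, including the 5 genes that did not serve to find the run. Their folds were 11.5 at Gm46490, 7.73 at Gm35195, 7.196 at Gm40518, 6.49 at Gm14149 and 5.14 at Gm29709. Over all autosomal genes with a promoter in the table, 5.67% had a peak there, and so did 5.23% of the 4857 genes whose promoter held 10 to 20 CpG. A peak was also present in 8 of 8 genes holding the first 18 bases of the run, and in 13 of 19 holding the last 18 bases. Both counts include the 2 genes that served to find the run. Without them the counts were 6 of 6 and 11 of 17. The run was found after the peaks were known, so these counts are descriptions, and a match of letters says nothing of what acts there. The shares over all autosomal genes include protein-coding genes, and no share for lncRNA genes alone is given. Whether the windows with the run are copies of one repeated sequence was not tested. Nor was it tested whether reads that map to several places contributed, so the 7 genes may not be independent.

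Desert peaks were sparse. They numbered 15.1 per Mb of desert sequence outside genes (exact Poisson 95% interval 14.5 to 15.7), against 35.5 per Mb (35.2 to 35.9) in the other sequence outside genes and 56.0 per Mb (55.6 to 56.5) in gene spans. The ratio of deserts to the other sequence outside genes was 0.424. Deserts made up 14.9% of the sequence outside genes and held 6.93% of its peaks. Desert peaks covered 1.46% of desert sequence, against 3.15% of the other sequence outside genes and 5.04% of gene spans. These intervals cover counting error only, and neighbouring peaks are not independent.

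Deserts held fewer weak and fewer strong peaks than the other sequence outside genes, and the shortfall was larger in weak peaks. A peak is called strong here when its −log10 q was 5 or more, q being the false discovery rate that the authors' peak caller gave the peak. Weak peaks numbered 9.28 per Mb in deserts (8.84 to 9.73), against 28.3 per Mb (28.0 to 28.7) in the other sequence outside genes and 52.6 per Mb (52.1 to 53.0) in gene spans. Strong peaks numbered 5.81 per Mb in deserts (5.46 to 6.17), against 7.21 per Mb (7.05 to 7.38) in the other sequence outside genes and 3.48 per Mb (3.37 to 3.59) in gene spans. Deserts thus had 0.327 times the weak peaks of the other sequence outside genes but 0.805 times its strong peaks, and 1.67 times the strong peaks of gene spans. Of all 106034 autosomal peaks, 11.9% were strong. Among the desert peaks 1055 were strong, or 38.5% (exact Clopper-Pearson 95% interval 36.7 to 40.4), against 20.3% (19.9 to 20.7) of the other peaks outside genes and 6.21% (6.03 to 6.39) of peaks on genes. The share was 31.5% (30.0 to 33.2) for peaks outside genes at 250 to 500 kb from protein-coding genes. It was 33.8% (28.8 to 39.2) for peaks on annotated genes inside deserts, which the rule left out.

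Peak number followed the distance from protein-coding genes in weak peaks far more than in strong ones. Outside genes, weak peaks numbered 36.7 per Mb up to 10 kb from a protein-coding gene, 37.3 at 10 to 50 kb, 27.1 at 50 to 100 kb, 21.1 at 100 to 250 kb and 13.4 at 250 to 500 kb. In the deserts they numbered 9.22 per Mb at 500 to 1000 kb and 9.39 per Mb beyond 1000 kb. Strong peaks were at 6.18, 9.01, 7.47, 6.48 and 6.19 per Mb in the 5 classes up to 500 kb, and at 5.63 and 6.17 per Mb in the 2 desert classes. The intervals of the desert classes overlapped each other for both kinds of peak, so these counts showed no clear further difference in peak number inside deserts. Overlap of intervals is not a test. Median width did differ, at 565 bp (552 to 586) from 500 to 1000 kb and 632 bp (594 to 678) beyond 1000 kb. In narrower steps, all desert peaks together numbered 15.4 per Mb at 500 to 750 kb, 13.9 at 750 to 1000 kb, 16.1 at 1000 to 1500 kb and 13.9 beyond 1500 kb.

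**Figure D1:**
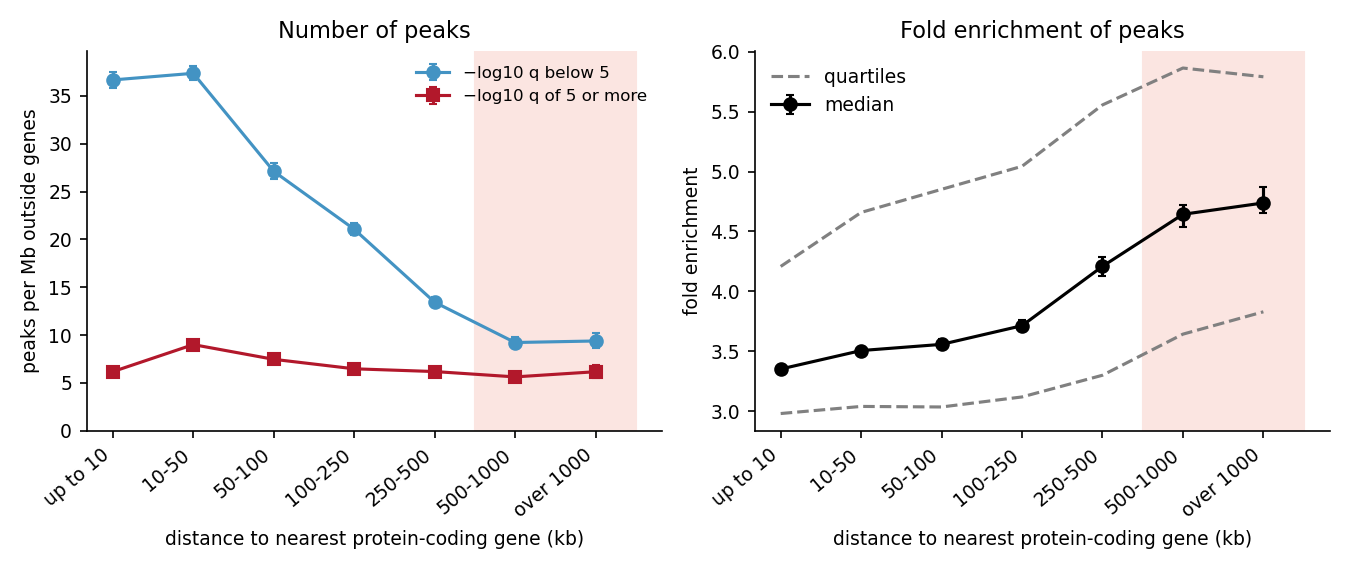
Peaks outside genes by distance to the nearest protein-coding gene (kb). Left, peaks per Mb with exact Poisson 95% intervals, weak and strong peaks apart; right, median fold enrichment with its 95% interval, and quartiles as dashed lines. The shaded classes are the deserts, where weak peaks stand at 9.22 and 9.39 per Mb and strong peaks at 5.63 and 6.17 per Mb.

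Desert peaks had higher folds as a group. The fold enrichment of a peak is the authors' value, the captured signal over the background that the peak caller assumed. Whether that background came from the library before capture is not given in the files and labels, so folds are compared only within the list. Its median was 4.68 in desert peaks (quartiles 3.71 and 5.84), against 3.54 (3.05 and 4.75) in the other peaks outside genes and 3.25 (2.96 and 3.72) in peaks on genes. By construction 10.0% of autosomal peaks are in the class with the highest fold, which began at 5.43. In that class were 908 desert peaks, or 33.1% (31.4 to 34.9), against 17.2% (16.9 to 17.6) of the other peaks outside genes and 5.04% (4.87 to 5.21) of peaks on genes. The rise was graded with distance. Peaks outside genes at 250 to 500 kb had a median fold of 4.21 (4.13 to 4.28), and 27.3% (25.7 to 28.8) were in that class. So were 29.7% (24.8 to 34.9) of peaks on annotated genes inside deserts, which the rule left out. Folds under 3 were found in 6.39% of desert peaks, against 21.9% of the other peaks outside genes and 28.6% of peaks on genes. Per Mb, peaks with a fold of 3 to 4 were 4.09 in deserts against 14.5 in the other sequence outside genes, and peaks with a fold of 6 to 8 were 2.93 against 3.46.

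Among strong peaks alone, a class cut on −log10 q, which moves with fold, the median fold was 6.24 (6.18 to 6.30) in deserts, against 6.22 (6.19 to 6.25) in the other peaks outside genes and 6.10 (6.07 to 6.13) in peaks on genes. At a −log10 q of at least 3 these medians were 5.48, against 5.37 and 4.80. Of 1331 autosomal peaks with a fold of 8 or more, 94 were desert peaks, or 7.06%, and of 163 with a fold over 10, 13 were, or 7.98%. Desert peaks made up 2.58% of autosomal peaks, and deserts 7.56% of the autosomal sequence. A fold of 8 or more was found in 3.43% of desert peaks, against 2.21% of the other peaks outside genes and 0.638% of peaks on genes.

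**Figure D2:**
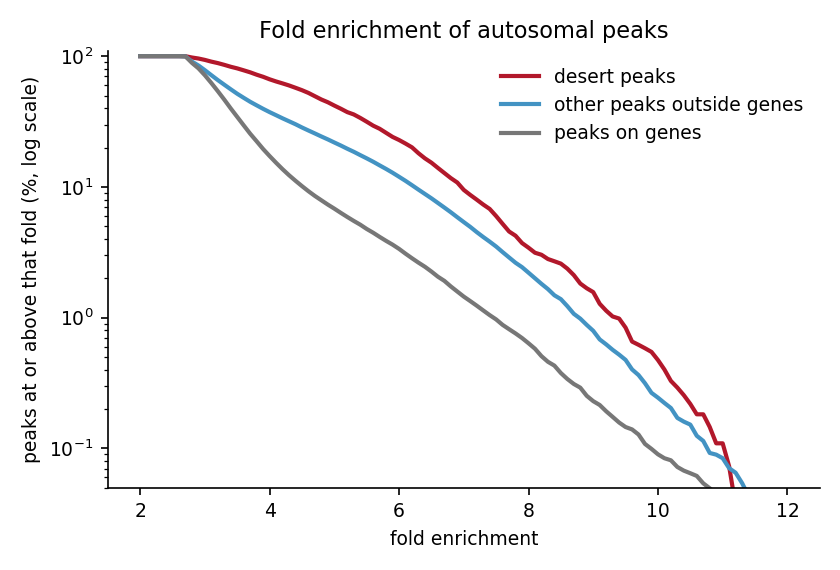
Share of peaks at or above each fold enrichment (%, log scale) for desert peaks, other autosomal peaks outside genes and autosomal peaks on genes. The desert curve lies above both others between folds of about 3 and 11, with medians of 4.68, 3.54 and 3.25.

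Desert peaks were close in width to the rest at the median, and a larger share of them was broad, although broad peaks were fewer per Mb. The median width was 583 bp (565 to 605), against 613 bp (606 to 621) in the other peaks outside genes and 657 bp (652 to 664) in peaks on genes. Widths over 2 kb were found in 8.11% of all autosomal peaks. Among desert peaks 330 were that wide, or 12.04% (10.8 to 13.3), against 7.91% (7.64 to 8.19) of the other peaks outside genes and 8.05% (7.85 to 8.26) of peaks on genes. Per Mb these broad peaks numbered 1.82 (1.63 to 2.02) in deserts, against 2.81 (2.71 to 2.92) in the other sequence outside genes and 4.51 (4.39 to 4.64) in gene spans. The nearest comparisons were closer. Outside genes at 250 to 500 kb, broad peaks were 9.37% (8.39 to 10.4) of peaks and 1.84 per Mb (1.64 to 2.06). Of the peaks on annotated genes inside deserts, which the rule left out, 12.8% (9.39 to 16.8) were broad. Among strong peaks the shares over 2 kb were 20.3%, against 20.6% and 20.6%, and the median widths were 751 bp, against 865 bp and 899 bp.

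Desert peaks had the higher median fold in each of 4 broad width classes. Under 400 bp the median fold was 3.91 in desert peaks, against 3.35 in the other peaks outside genes and 3.25 in peaks on genes. From 400 to 800 bp it was 4.94, against 3.58 and 3.19. From 800 to 1600 bp it was 4.77, against 3.49 and 3.21, and above that 5.48, against 4.87 and 3.46. Across peaks, width and fold had a Spearman rho of 0.354 in deserts, against 0.239 in the other peaks outside genes and 0.0982 on genes, with peaks of 1 library as the points. In narrower steps the order did not always hold. From 4000 to 5000 bp the median fold was 5.83 in 24 desert peaks, against 5.85 in 233 other peaks outside genes, from 6000 to 7000 bp 4.94 in 3 against 5.63 in 68, and from 7000 to 8000 bp 5.85 in 11 against 5.92 in 46.

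**Figure D3:**
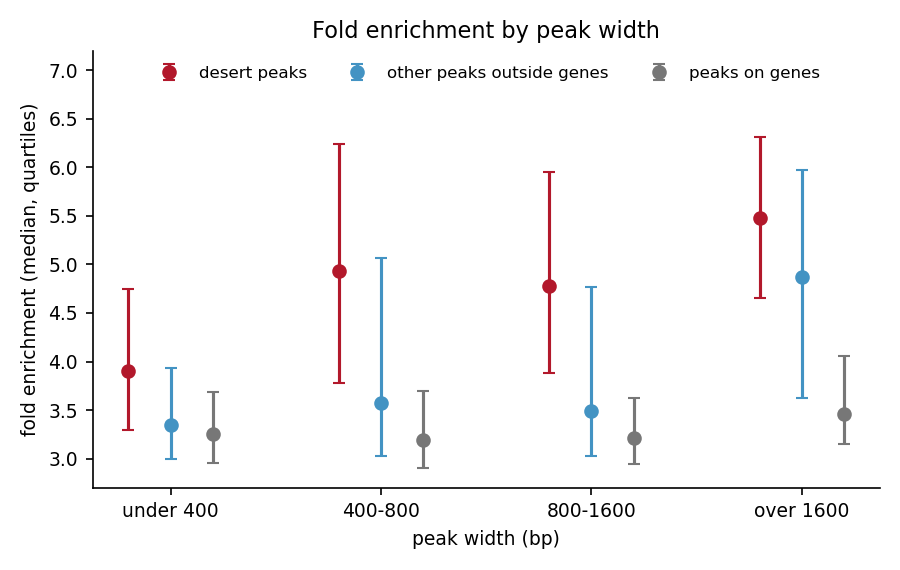
Fold enrichment by class of peak width (bp), as median with quartiles, for desert peaks, other autosomal peaks outside genes and autosomal peaks on genes. Desert peaks have the highest median in each of the 4 classes, from 3.91 in the narrowest to 5.48 in the widest.

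All 19 autosomes held desert peaks. The median fold of desert peaks was above that of the other peaks outside genes and above that of peaks on genes on 19 of 19 chromosomes, and ranged from 4.30 on chromosome 6 to 4.89 on chromosome 1. The share of strong peaks was also higher in deserts on 19 of 19 chromosomes, while the median width was larger on 5. Density ran from 10.8 per Mb on chromosome 19 (6.05 to 17.8, from 15 peaks) to 20.7 per Mb on chromosome 9 (16.6 to 25.4, from 90 peaks). Chromosome 1, with 19.8 Mb of desert outside genes, held the most desert peaks, 339. At the edge of the rule, 616 desert peaks lay 500 to 600 kb from a protein-coding gene and had a median fold of 4.59 and a median width of 590.5 bp, while 925 peaks outside genes lay 400 to 500 kb away and had medians of 4.34 and 581 bp.

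**Figure D4:**
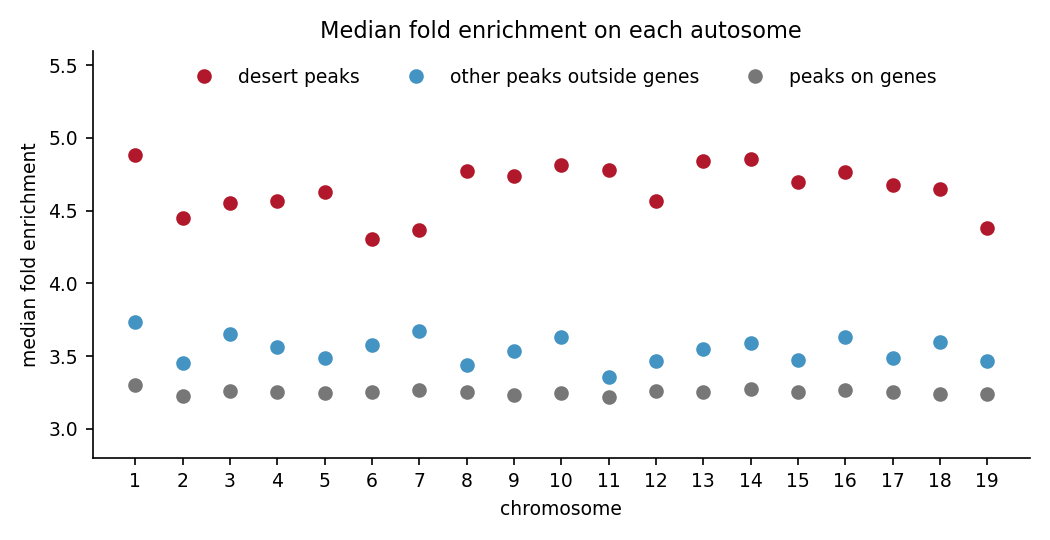
Median fold enrichment on each of the 19 autosomes for desert peaks, other peaks outside genes and peaks on genes; the fold axis starts at 2.8. The desert medians lie between 4.30 and 4.89 and are above the other medians of the same chromosome throughout.

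The peaks were spread over nearly all deserts. There were 249 deserts with a total length of 201 Mb, of which 182 Mb lay outside genes, and a desert peak was found in 218 of them, or 87.6% (82.8 to 91.4). All 113 deserts with 0.5 Mb or more outside genes had at least 1. In these the density ran from 2.37 to 35.9 per Mb, with a median of 14.3 and quartiles of 10.3 and 18.5. The pooled density was 16.5 per Mb in deserts with up to 0.5 Mb outside genes, 14.7 per Mb in those of 0.5 to 1 Mb, 15.3 in those of 1 to 2 Mb and 14.5 in longer ones. Of 97 deserts of any length with 10 or more peaks, 95 had a median fold above the 3.54 of the other peaks outside genes. The other 2 were short, with medians of 3.34 between Dhx35 and Gm826 (10 peaks) and 3.49 between Sall3 and Galr1 (12 peaks). Neighbouring desert peaks stood farther apart than elsewhere. The nearest peak of any kind was at a median of 11.3 kb from a desert peak, against 5.32 kb from the other peaks outside genes and 3.77 kb from peaks on genes.

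The desert with the most peaks lies on chromosome 18 between Cdh2, which encodes N-cadherin, and Dsc3, which encodes a desmocollin of desmosomes. It held 63 peaks, or 30.8 per Mb (23.7 to 39.4), and 30 of them were strong. On chromosome 3, the desert between the sorting nexin gene Snx16 and Ralyl, which encodes an RNA-binding protein, held 61 peaks at 30.6 per Mb (23.4 to 39.3), with 32 strong. On chromosome 1, 53 peaks lay between Dsel and Cntnap5a, 52 between the zinc transporter gene Slc39a10 and Tmeff2, and 48 between Cntnap5b and the cadherin gene Cdh20. The Cntnap genes encode neuronal surface proteins of the neurexin superfamily. The desert between the protocadherin gene Pcdh7 and G6pd2 held 48. There were 44 each in the deserts of Cox7c and Edil3, of Olfm4 and Pcdh17, and of D3Ertd751e and Pcdh10, and 42 each in those of Hace1 and Grik2, of Cntn5 and Jrkl, and of Cdh6 and Cdh9. The 10 deserts with most peaks, with 1 taken of the 3 tied at 42, held 499 desert peaks, 18.2% of the total, on 13.7% of the desert sequence.

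Density varied between deserts, and the ones named next were chosen as its extremes, so their intervals describe counting error and test no difference. The densest with 0.5 Mb or more lay on chromosome 3 between Agtr1b, an angiotensin receptor gene, and Tbl1xr1, a corepressor subunit gene, with 23 peaks at 35.9 per Mb (22.8 to 53.9). The next desert, between Tbl1xr1 and Naaladl2, had 19 at 32.7 per Mb (19.7 to 51.0). The desert of the contactin gene Cntn5 and Jrkl on chromosome 9 had 42 at 32.4 per Mb (23.3 to 43.8), and that of Vrk2 and Ccdc85a on chromosome 11 had 23 at 31.1 per Mb (19.7 to 46.7). At the other end, chosen after their values were seen, the desert of Bcl11a and Fancl had 2 peaks, or 2.37 per Mb (0.287 to 8.55). That of the teneurin gene Tenm2 and Mat2b had 8 over 2.05 Mb, or 3.90 per Mb (1.68 to 7.68), and that of Cetn3 and Mef2c had 3, or 4.25 per Mb (0.876 to 12.4). The longest deserts were those of Pcdh20 and Pcdh9 (3.54 Mb, 39 peaks), Celf4 and Pik3c3 (3.51 Mb, 15 peaks), Olfm4 and Pcdh17 (3.42 Mb, 44 peaks), Cntnap5b and Cdh20 (3.28 Mb, 48 peaks), and Tenm3 and Aga (2.99 Mb, 39 peaks). The Celf4 desert had 5.54 per Mb (3.10 to 9.14) and the Pcdh20 desert 11.6 per Mb (8.25 to 15.9). Gaps in the assembly could not be taken out of the lengths.

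**Figure D5:**
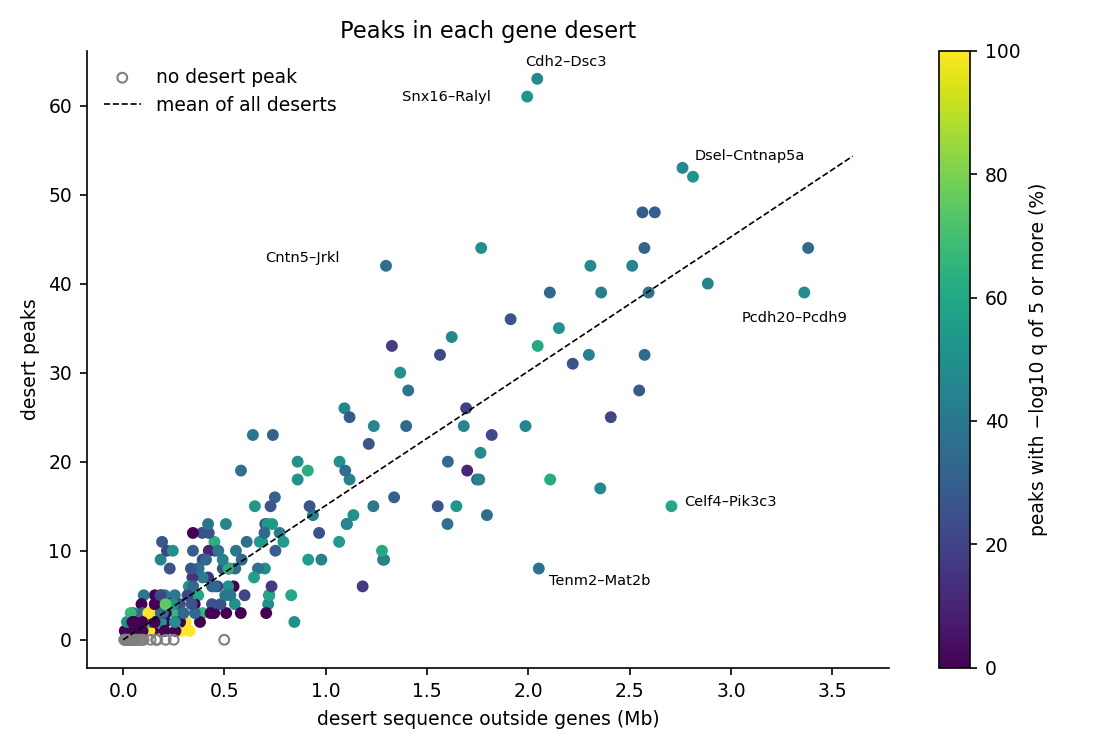
Desert peaks in each of the 245 deserts with 1 kb or more of sequence outside genes, against the Mb of that sequence, coloured by the share of strong peaks (%). The dashed line is the mean of 15.1 per Mb; the Cdh2–Dsc3, Snx16–Ralyl and Cntn5–Jrkl deserts lie far above it, and Tenm2–Mat2b and Celf4–Pik3c3 far below.

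The strongest desert peak lay on chromosome 10 from 47804436 to 47804705, 1289 kb from Grik2, a kainate receptor gene, and 2092 kb from Hace1, a ubiquitin ligase gene. Its fold of 20.3 was the second highest of all autosomal peaks, although it was only 270 bp wide, and its nearest neighbour was 45.6 kb away. All other desert peaks had folds of 11.2 or less. The next was on chromosome 3 from 12793875 to 12794625, fold 11.2, in the Snx16 and Ralyl desert. Another 3 of the 10 highest lay on chromosome 3. They had folds of 11.1 in the Agtr1b and Tbl1xr1 desert, 10.8 in the Tbl1xr1 and Naaladl2 desert and 10.8 between the atypical cadherin gene Fat4 and Intu. A peak of fold 10.5 stood between the cadherin genes Cdh8 and Cdh11, and peaks of fold 10.4 and 10.2 both lay between Fam98a and Crim1 on chromosome 17. The Cdh2 and Dsc3 desert held one of fold 10.3, and that of Man1a and Tbc1d32 one of fold 10.2. These last 9 peaks were 576 to 2457 bp wide.

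The widest desert peak, 12597 bp on chromosome 9 from 11812185 to 11824781, lay 907 kb from Cntn5 and had a fold of 6.52. Widths of 8942, 8571, 8466 and 8361 bp followed, between Cdh6 and Cdh9, Akr1e1 and Klf6, Lrrc4c and Iftap, and Snx16 and Ralyl, with folds of 5.56, 5.34, 5.75 and 6.74. The desert peak farthest from any protein-coding gene was on chromosome 14, 2224 kb from Pcdh9 and 2318 kb from Pcdh20, with a fold of 5.01. The next 3 stood between Olfm4 and Pcdh17, 2158, 2155 and 2137 kb from the nearer gene, with folds of 5.16, 9.09 and 4.74. The fifth stood between Cntnap5b and Cdh20 with a fold of 5.07.

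A pair of desert peaks had q values out of proportion to their fold. Both lay on chromosome 2 between Lrrc4c and Iftap, from 98662238 to 98662958 and from 98666246 to 98667323. Their −log10 q values were 1930 and 9128 at folds of 3.38 and 3.79, while the next highest −log10 q of a desert peak was 51.9. Whether reads that map to several places contributed there was not tested.

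Genes on the lists of cell adhesion genes made up 8.53% of the genes at the borders (6.14 to 11.5), against 0.759% of all genes. Genes of one family can border neighbouring deserts, as Cdh6, Cdh9 and Cdh10 do on chromosome 15, so this interval is too narrow. Which genes border a desert is set by the annotation and not by 5hmC, so the counts that follow describe where the peaks lie. The 249 deserts had 457 different protein-coding border genes. Cadherins and protocadherins were 17 of them, or 3.72%, against 0.438% of all 20560 autosomal protein-coding genes. The list of contactin, neurexin, teneurin, latrophilin and other genes gave 14, or 3.06% against 0.180%, and leucine-rich repeat adhesion genes 8, or 1.75% against 0.141%. Among these 14, and so within the 8.53%, is Nrg3, a neuregulin gene. The border genes Dsc3 and Fat4, named above, are on none of the lists. All 17, all 14 and 7 of the 8 bordered a desert with a peak, and the exception was Lrrtm4. Of all 457 border genes, 400 did so, and all 113 deserts with 0.5 Mb or more outside genes held a peak. A desert with a peak at the border is therefore not particular to these lists. Glutamate receptors numbered 5, or 1.09% against 0.122%, potassium channels 5, or 1.09% against 0.443%, and developmental transcription factors 17, or 3.72% against 1.21%. Thus 5 of 25 glutamate receptors bordered a desert, and 17 of 90 cadherins and protocadherins, against 457 of all 20560 genes. Olfactory and vomeronasal receptors gave 1 of 1448, and Zfp-symbol genes 4 of 360. None of 26 germ cell genes and none of 15 genes of TET enzymes, DNA methyltransferases and methyl-CpG readers bordered a desert. At the share of all genes, lists this short can easily hold none, so these counts show no avoidance of deserts. Of 17 markers of gonadal soma, blood and endothelium, Sox9, Ptprc and Cdh5 bordered a desert, with 0, 1 and 2 peaks in their deserts.

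The intervals of density overlapped between all kinds of border gene compared. Deserts beside cadherins and protocadherins had 16.0 peaks per Mb (14.7 to 17.4), those of the contactin and neurexin list 15.7 (13.99 to 17.46), of the leucine-rich repeat list 13.3 (11.5 to 15.3), of glutamate receptors 16.9 (13.2 to 21.3), of potassium channels 16.4 (13.2 to 20.1) and of developmental transcription factors 14.2 (11.9 to 16.8). Deserts with no listed gene on either side had 14.9 per Mb (14.2 to 15.7). Their median folds were 4.75, 4.60, 4.78, 4.63, 4.56 and 4.36 in the same order, and 4.67 with no listed gene. Within a list the spread was wide. Among cadherins it ran from 0 in a short desert beside Pcdh10 to the 30.8 per Mb of Cdh2. In deserts of developmental regulators, Gata3 had 28 peaks at 19.9 per Mb, Nr2f1 24 at 14.3 and Pou3f2 15 at 20.6, while Bcl11a had 2.

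Other adhesion and receptor genes also bordered the 20 deserts with most peaks. Across deserts, the number of peaks went with the length of sequence outside genes (Spearman rho 0.895). That length had a median of 2.11 Mb beside cadherins and protocadherins, 1.28 Mb for the leucine-rich repeat list and 0.934 Mb for the contactin and neurexin list. With no listed gene on either side it was 0.345 Mb. The desert of Cdh6 and Cdh9 held 42 peaks with a median fold of 4.97, and that of Lrrc4c, which encodes a netrin-G ligand, held 40 with 4.62. The deserts of Slitrk5, a synaptic adhesion gene, of the latrophilin gene Adgrl3 and of the teneurin gene Tenm3 held 39 each, with median folds of 5.04, 4.57 and 4.72. Another desert beside Adgrl3 held 3 at 6.68 per Mb. Cdh8 bordered deserts on both sides. The one it shares with Cdh11 held 35 peaks at 16.3 per Mb and the other held 18 at 8.54 per Mb, with median folds of 5.30 and 5.44.

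The border genes held fewer peaks per Mb than other genes, while 63.7% of them (59.1 to 68.1) had a peak, against 64.3% (63.7 to 65.0) of all autosomal protein-coding genes. Their spans held 19.02 peaks per Mb (18.1 to 19.9), against 58.3 per Mb (57.9 to 58.8) over all autosomal protein-coding genes, and 2.07 strong peaks per Mb (1.79 to 2.39), against 2.87 (2.76 to 2.97). Border genes were long, with a median span of 61.0 kb against 17.6 kb. Among spans of 100 kb or more the values were 16.2 per Mb in 185 border genes (15.4 to 17.1), against 42.5 per Mb (42.0 to 43.0) in all 2312 such genes. A peak was present in 87.0% (81.3 to 91.5) of these 185, against 95.6% (94.7 to 96.4) of the 2312.

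The rule left out peaks on non-coding and immune gene segments inside deserts. There were 337 of these, at 17.0 per Mb (15.2 to 18.9) of such genes, with a median fold of 4.34. The 4 deserts with under 1 kb outside genes had no desert peak by construction. Of the 4, 3 are the Igk, Igh and Tcra loci, whose variable segments are not counted as protein-coding, and which held 64, 42 and 19 peaks over 2.23, 1.501 and 0.694 Mb. Together the 4 had 28.4 peaks per Mb (23.6 to 33.8) with a median fold of 4.53, against 13.7 per Mb (11.9 to 15.7) and 4.23 for peaks on non-coding genes in the other 245 deserts. The longest desert without a peak outside these loci was that of Stpg2 and Pdha2, of 0.4997 Mb, where 0 peaks allow up to 7.39 per Mb.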

How the data were processed

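The only file used was the broad peak list of the captured library, on mouse build mm10. The submitters' processing notes name MACS2 2.1.0, whose output has this format, and also Bowtie2 2.5.0, Trim Galore, deepTools 3.5.1, SAMtools 1.16.1 and bedtools 2.27.1. The role and settings of each tool were not given in the sources used here. For each peak the authors deposited a score, which was not used, a fold enrichment (a ratio), a −log10 p and a −log10 q. How many reads lie behind a peak is unknown.

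Gene spans came from the RefSeq gene table of assembly GRCm38.p6. A desert is a stretch over 500 kb from every protein-coding gene span, the first 3 Mb of each autosome left out as an assembly gap. Densities divide peak counts by the sequence outside genes, up to the last peak or gene of a chromosome. Rates have exact Poisson 95% intervals, shares exact Clopper-Pearson intervals and medians order-statistic intervals. All cover counting error only, and with 1 library no test was run. The calculations were checked on simulated data and used Python 3.11.15, numpy 2.4.6, scipy 1.17.1, pandas 2.3.3 and matplotlib 3.10.9.

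Named genes border the 10 desert peaks of highest fold, the 5 widest and 5 farthest, the 10 deserts with most peaks, the 5 densest of 0.5 Mb or more, the 5 longest, the longest without a peak, or belong to a gene list and border the 20 deserts with most peaks. Others were named after their values were seen. The desert rule and the gene lists were chosen with earlier results of these data known. Alternatives were other distances, stricter −log10 q limits, other gene sets, merged peaks, peak midpoints and other denominators.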

Additional observations from a re-analysis of the deposited data

How the results depend on the processing

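Of 66 recomputed values, 47 were called the same, 18 moved further and 1 changed direction. A value was called the same when it stayed inside the interval of the main value. The number of desert peaks has no interval and was judged by a band set by hand. Setting desert peaks beside those 100 to 500 kb from protein-coding genes changed only the comparison, 4.68 against 3.87 in median fold. It was therefore bound to be called the same. With peaks of −log10 q of at least 3, there were 1760 desert peaks, at 9.69 per Mb against 12.7 in the other sequence outside genes, with a median width of 692.5 bp and a median fold of 5.48 against 5.37. Of these, 59.9% reached a −log10 q of 5, and 80.7% of deserts held one. At a −log10 q of at least 5, there were 1055, at 5.81 per Mb against 7.22 (7.21 in the report, since the sequence counted ends at the last peak kept or gene), with 751 bp and a fold of 6.24 against 6.22, in 72.7% of deserts. At over 250 kb from protein-coding genes, there were 6028, at 17.3 per Mb against 38.6, with a fold of 4.43 against 3.497 and 34.7% strong. Genes on the adhesion lists were then 4.79% of border genes, against 8.53% at 500 kb and 0.759% of all genes. At over 1000 kb there were 920, and the median width changed direction, 632 bp against 610 bp. With all desert sequence as the denominator the density was 13.6 per Mb. Limiting the values to deserts of at least 1 kb or 0.5 Mb outside genes was chosen after seeing the data. No paired analysis was possible because there was 1 captured library and no test. The lack of replicates and read counts limits every value.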
